A study of Mus musculus with 17 samples.

Results

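Cd3e, Cd3g, Lck, Cd8a, Thy1, Cd2, Cd7, Klrd1, Nkg7 and Gzmb are 10 genes best known from mature T cells and natural killer (NK) cells, and they were read here in 6 stem and progenitor populations of mouse bone marrow that should hold neither cell. They were taken by name: every non-control probe whose gene name on the array was one of the 10 was kept. This gave 15 probes of 41174 on the array, for 10 of 28090 gene names. Cd8a had 3 probes, Cd3e, Thy1 and Nkg7 had 2 each, and the other genes had 1 each.

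The 17 single-colour Agilent arrays held RNA from female C57Bl/6 mice of 6 to 8 weeks, with 10 to 20 mice pooled for each sample. Marrow was depleted of cells carrying B220, CD3, GR-1 or Ter119, enriched for c-kit and sorted by flow cytometry, with no antibody against an NK cell antigen among those of the depletion. The "HSC subsets" were long-term hematopoietic stem cells (LT-HSC, Lin- c-kit+ Sca-1+ CD34- FLT3-, 2 arrays), short-term hematopoietic stem cells (ST-HSC, the same gate but CD34+ FLT3-, 3 arrays) and multipotent progenitors (MPP, CD34+ FLT3+, 3 arrays). The myeloid populations were common myeloid progenitors (CMP, Lin- c-kit+ Sca-1- with intermediate CD34 and Fc gamma receptor), granulocyte-monocyte progenitors (GMP, CD34+ and Fc gamma receptor+) and megakaryocyte-erythroid progenitors (MEP, negative for both), with 3 arrays each, and came from a separate sort. No animal carried a transgene or was treated, according to the labels, and each population is defined by its surface gate alone.

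The T cell receptor signals through the CD3 chains, among them Cd3e and Cd3g, and the kinase Lck, which is bound by the co-receptors CD4 and CD8. Thy1, Cd2 and Cd7 are surface glycoproteins of T cells, Cd2 an adhesion receptor for CD48 in mice, and Thy1 is also a surface antigen of mouse stem cells. Klrd1 (CD94) pairs with NKG2 receptors to read major histocompatibility complex molecules, while Nkg7 is a membrane protein of cytotoxic granules and Gzmb is the granule protease granzyme B. In bone marrow, low transcription of lymphoid genes in cells that are still multipotent is known as lymphoid priming, and mast cells and basophils can also make granule proteases of this kind.

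The probes of a gene did not always read alike, so their sequences are given where the results turn on which probe is read. Probes are 60 bases long. Positions are those of the scanner output, in the mm9 build, and the scanner annotation did not say which exon or intron a probe lies in. The sequences run in the orientation in which the array design lists them and carry no capitals, because no base was singled out. The Cd8a probes lie at chr6:71323885-71323944, chr6:71327330-71327389 and chr6:71328911-71328970 on the plus strand, the Thy1 probes at chr9:43854991-43855436 (spliced over 446 bases of genome) and chr9:43856600-43856659 on the plus strand, and the Cd3e probe A_52_P86404 at chr9:44811984-44812043 on the minus strand. The first Cd8a probe, the spliced Thy1 probe and the spliced probes of Cd3g and Cd2 are shown whole, and the others by bases 1 to 30.
Cd8a A_52_P150547, whole: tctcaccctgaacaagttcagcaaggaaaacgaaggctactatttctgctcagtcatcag
Cd8a A_51_P345121, bases 1 to 30: ttaggtatgtgtctttagtatagcatgctt
Cd8a A_52_P443334, bases 1 to 30: cctgaaggaactaagagtcacccatggtcc
Thy1 A_51_P420731, whole: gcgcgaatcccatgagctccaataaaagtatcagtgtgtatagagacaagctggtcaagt
Thy1 A_52_P479249, bases 1 to 30: cactgctacagcatctcaccgaggaaagaa
Cd3e A_52_P86404, bases 1 to 30: ctaggaaacatcgatggtaaaaattaagtc
Cd3g A_51_P260889, whole: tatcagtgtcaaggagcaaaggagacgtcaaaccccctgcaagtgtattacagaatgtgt
Cd2 A_51_P126067, whole: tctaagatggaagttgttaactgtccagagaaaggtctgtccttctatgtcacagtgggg

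Cd3g (chr9:44781716-44782300) and Cd2 (chr3:101083802-101086981) lie on the minus strand, and their probes join bases that are 585 and 3180 bases apart from end to end in the genome. Lck (chr4:129225846-129225905), Cd7 (chr11:120898068-120898127) and Gzmb (chr14:56877916-56877975) were read by a single probe each on the minus strand, and Klrd1 by a probe at chr6:129548391-129548450 on the plus strand. The Nkg7 probes lie at chr7:50693148-50693207 and chr7:50693482-50693541 on the plus strand.

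The arrays came from 3 scanner runs. Run 1 held the CMP, GMP and MEP arrays numbered 1 and 2 on an older scanner, run 2 held the unnumbered arrays of every population other than LT-HSC, and run 3 held both LT-HSC arrays on a slide of their own with the numbered ST-HSC and MPP arrays. Only run 2 therefore held both HSC subsets and myeloid populations. The Agilent software marked 41.4% to 70.1% of non-control spots as well above background, and the unnumbered LT-HSC array was the dimmest, with a 75th percentile of 53.1 intensity units against 243 to 534 on the other arrays. A dim gene on that array is therefore weakly bounded: its lowest log2 value marked well above background was 5.86.

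All 10 genes were marked well above background on at least 4 arrays through at least 1 probe, and 160 of the 255 pairs of a probe and an array passed. The probes of Lck and Nkg7, Thy1 A_52_P479249 and Cd3e A_51_P455681, 5 probes in all, passed on all 17 arrays, while Cd3e A_52_P86404 passed on none. The arrays with most of the 15 probes well above background were ST-HSC 2 and MPP 3, with 14 each, and the array with fewest was GMP 1, with 6. In ST-HSC and in MPP 14 of the 15 probes passed on at least 1 array, against 12 in LT-HSC, 9 in CMP and 8 in both GMP and MEP. Over all 41174 probes the share that passed on at least 1 array of the population was likewise highest in ST-HSC (75.5%) and MPP (71.3%), with 61.7% in CMP, 58.8% in GMP, 55.3% in LT-HSC and 53.5% in MEP. LT-HSC had 2 arrays and the other populations 3. The values below are log2 intensities after quantile normalization, so that a step of 1 is a doubling. They do not compare levels between genes, because probes differ in how strongly they bind. In bulk RNA a few cells with much of a transcript and many cells with little of it cannot be told apart.

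**Figure D1:**
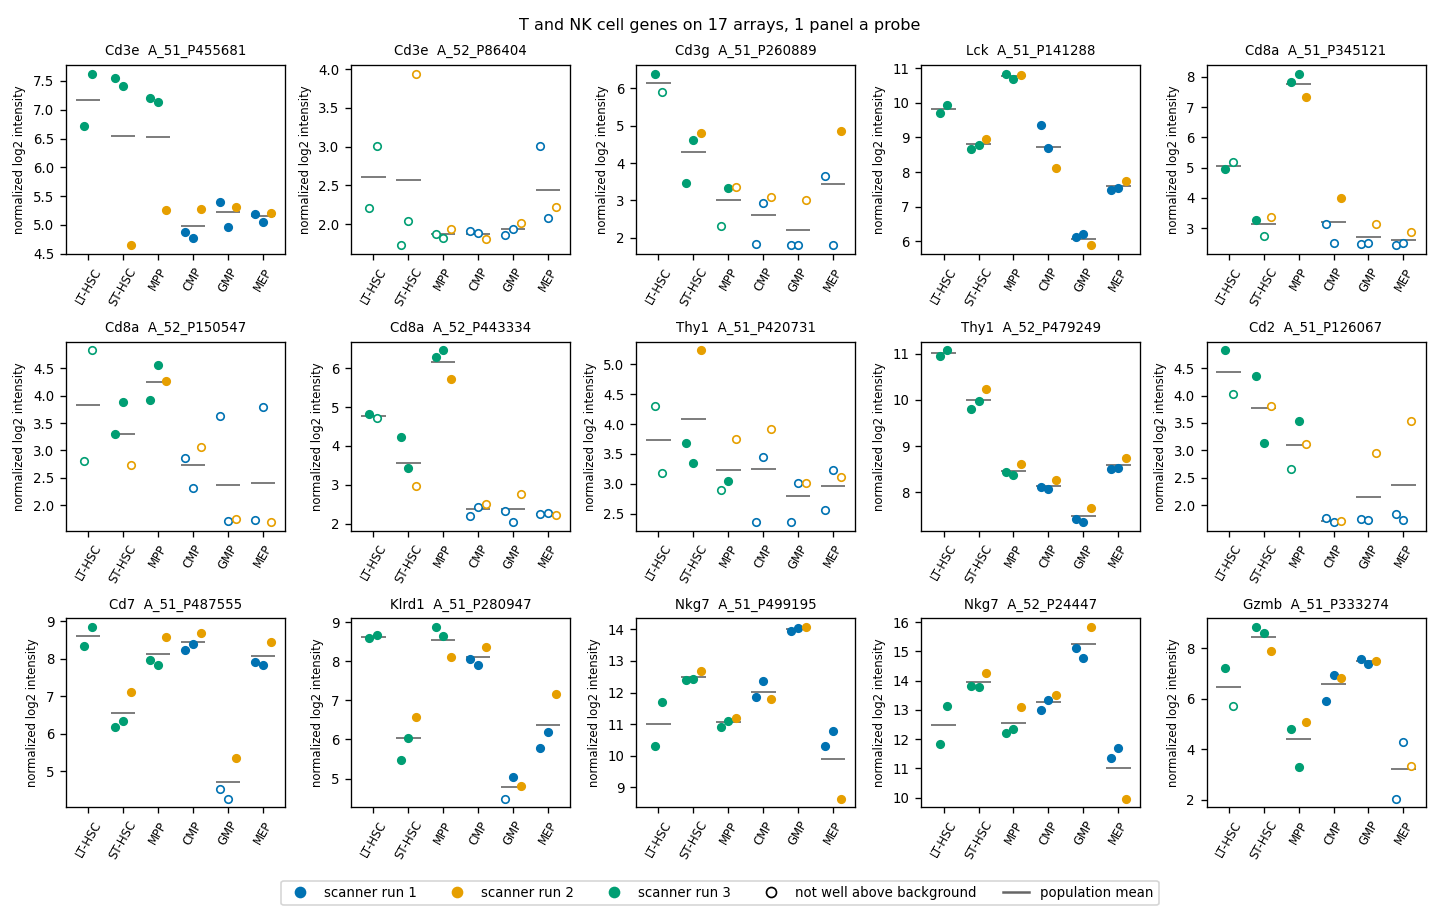
Normalized log2 intensity (vertical axis) of the 15 probes of the 10 genes on each of the 17 arrays, 1 panel per probe, with the 6 populations on the horizontal axis, colour for the scanner run and open points where the probe was not marked well above background. Lck and both Nkg7 probes are filled on every array, while Cd3g, Cd2 and the Cd8a probes are open on most myeloid arrays.

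Lck, the kinase that starts T cell receptor signalling, was highest in MPP and lowest in GMP. It read 9.70 and 9.94 on the LT-HSC arrays, 8.67, 8.79 and 8.97 on the ST-HSC arrays and 10.84, 10.70 and 10.81 on the MPP arrays. In the myeloid populations it read 9.37, 8.70 and 8.11 in CMP, 6.13, 6.20 and 5.89 in GMP and 7.49, 7.55 and 7.74 in MEP. Between neighbours in the order of means, MPP, LT-HSC, ST-HSC, CMP, MEP and GMP, only the ST-HSC and CMP arrays overlapped.

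Cd8a, the alpha chain of the CD8 co-receptor, was highest in MPP by the mean of each of its 3 probes. Probe A_51_P345121 read 7.82, 8.10 and 7.32 on the MPP arrays, against 4.94 and 5.18 in LT-HSC and 3.28, 2.74 and 3.38 in ST-HSC. Its 9 myeloid values lay between 2.43 and 3.99, and only the value of 3.99, on a CMP array, was well above background. Probe A_52_P443334, printed at 10 places on each array, read 6.29, 6.46 and 5.73 in MPP, 4.82 and 4.73 in LT-HSC, 4.24, 3.44 and 2.98 in ST-HSC and 2.05 to 2.78 on the 9 myeloid arrays, none of them well above background. With both of these probes every MPP array lay above every other array. Probe A_52_P150547 was dimmer and read 3.92, 4.56 and 4.28 in MPP, with all of them well above background, but the dim LT-HSC array reached 4.83 without passing. Across the 17 arrays A_51_P345121 and A_52_P443334 had a Pearson's r of 0.94 (Spearman's rho 0.84), as a description, and A_52_P150547 had r of 0.63 and 0.69 with them.

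**Figure D2:**
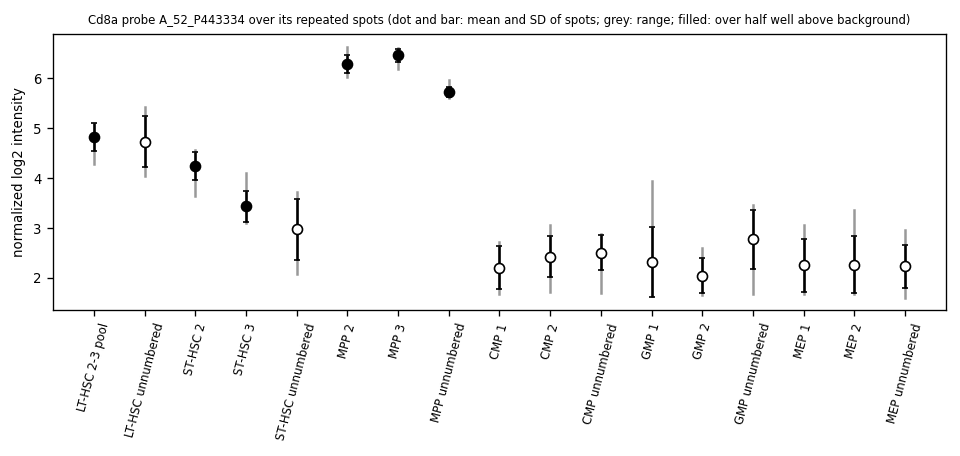
Normalized log2 intensity (vertical axis) of Cd8a probe A_52_P443334 over its 10 spots, of which 8 to 10 were used, on each of the 17 arrays (horizontal axis). Dots are the mean of the spots, bars the SD and grey lines the range, and dots are filled where most spots were well above background. The SD between spots of an array was 0.10 to 0.71, and the spots of the 3 MPP arrays, with means of 5.73 to 6.46, lie above those of every myeloid array, with means of 2.05 to 2.78.

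The CD3 chains gave 2 different pictures. Cd3g was brightest on the LT-HSC arrays, at 6.38 and 5.90, of which only the first was well above background, and read 3.47, 4.61 and 4.80 in ST-HSC, where all arrays passed. It passed on 1 MPP array (3.33) and 1 MEP array (4.86), and the other values of MPP, CMP, GMP and MEP, 1.80 to 3.66, did not pass. The LT-HSC arrays lay above all others, and the ST-HSC arrays lay above those of MPP but overlapped with MEP.

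Cd3e A_51_P455681 was instead ordered by scanner run. The 6 arrays of HSC subsets in run 3 read 6.71 to 7.62, but the ST-HSC and MPP arrays of run 2 read 4.65 and 5.26, where the 9 myeloid arrays read 4.78 to 5.39. Within ST-HSC and MPP the run 3 arrays were 2.37 above those of run 2, a difference larger than that of 99.2% of all probes, whose median was -0.035. The genes whose probes were most like it over the 17 arrays were Cic (r = 0.99), Celsr2 (r = 0.99) and Msi1 (r = 0.98), none of which encodes a T cell receptor subunit. Its other probe, A_52_P86404, read 1.72 to 3.94 and passed on no array. The r of -0.15 between the 2 probes therefore cannot say whether they agree, and no level of Cd3e can be read from both.

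Thy1 A_52_P479249 fell from LT-HSC to MPP and again from CMP to GMP. It read 10.95 and 11.07 in LT-HSC, 9.79, 9.98 and 10.22 in ST-HSC and 8.44, 8.36 and 8.60 in MPP. CMP read 8.11, 8.07 and 8.26, GMP 7.42, 7.36 and 7.65, and MEP 8.51, 8.53 and 8.75. Of the neighbours in this order only MEP and MPP overlapped, and the largest SD of a population was 0.22. The spliced probe, A_51_P420731, was near background, with 2.37 to 5.23 on all 17 arrays and a pass on the 3 ST-HSC arrays and on 1 MPP array, and its r with the other probe was 0.58.

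Cd2 was dim throughout. It passed on 1 LT-HSC array (4.83), 2 ST-HSC arrays (4.37 and 3.13) and 1 MPP array (3.53), and on no myeloid array, where values were 1.69 to 3.54. Every pair of neighbours in its order of means overlapped.

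Cd7 and Klrd1 shared a shape that was not that of Lck or Thy1: both were low in GMP and intermediate in ST-HSC. Cd7 read 8.34 and 8.84 in LT-HSC, 6.17, 6.34 and 7.12 in ST-HSC, 7.98, 7.84 and 8.57 in MPP, 8.25, 8.39 and 8.68 in CMP and 7.91, 7.83 and 8.45 in MEP. In GMP it read 4.54, 4.28 and 5.36, and only the last passed. Klrd1 read 8.59 and 8.68 in LT-HSC, 5.48, 6.04 and 6.58 in ST-HSC, 8.87, 8.66 and 8.12 in MPP, 8.05, 7.90 and 8.37 in CMP, 4.49, 5.03 and 4.81 in GMP and 5.77, 6.20 and 7.17 in MEP. MPP overlapped with LT-HSC and with CMP for both genes, as it did with MEP for Cd7, and MEP overlapped with ST-HSC for Klrd1.

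Grap2, which encodes an adaptor of T cell receptor signalling, and Blnk, the adaptor of B cell receptor signalling, were among the 3 genes most like Cd7 (r = 0.92 and 0.89) and the 3 most like Klrd1 (r = 0.96 for both). The others were the interleukin 7 receptor Il7r for Cd7 (r = 0.91) and Sdc1 for Klrd1 (r = 0.94). For Lck they were Ier5, Gimap6 and Rgl1 (r = 0.96 each), and for Thy1 A_52_P479249 the CD8 beta chain gene Cd8b1 (r = 0.93), Trim47 and Tcf15 (r = 0.92 each). These are correlations over the same 17 arrays, which share populations and runs. By construction they were the highest among the 22603 probes well above background on at least 9 arrays.

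Nkg7 was highest in GMP, the population in which Lck, Cd7 and Klrd1 were lowest. Probe A_51_P499195 read 10.32 and 11.69 in LT-HSC, 12.41, 12.41 and 12.68 in ST-HSC, 10.92, 11.11 and 11.20 in MPP, 11.87, 12.37 and 11.79 in CMP, 13.95, 14.04 and 14.07 in GMP and 10.29, 10.78 and 8.64 in MEP. Probe A_52_P24447 gave the same order of populations, with 14.77 to 15.84 in GMP, 13.79 to 14.26 in ST-HSC, 13.00 to 13.50 in CMP and 9.96 to 11.70 in MEP, and the r between both probes was 0.98. The genes most like both probes were Hsd17b1, Anxa3 and Gpr160 (r = 0.97 to 0.98).

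Gzmb was highest in ST-HSC, at 8.83, 8.60 and 7.88, followed by GMP, at 7.56, 7.37 and 7.49, and CMP, at 5.90, 6.95 and 6.83. LT-HSC read 7.21 and 5.71, the latter on the dim array and not well above background, and MPP read 4.82, 3.29 and 5.09. The MEP arrays, at 2.04, 4.29 and 3.35, did not pass. Elovl7, 4930519L02Rik and the mast cell carboxypeptidase gene Cpa3 were most like it (r = 0.92, 0.90 and 0.90).

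Over the 6 populations together, 11 of the 15 probes differed in limma's moderated F-test at an adjusted p under 0.05, against a background of 40.6% of all probes. The 4 others were both Cd3e probes (adjusted p = 0.0804 and 0.485), Cd8a A_52_P150547 (adjusted p = 0.144) and Thy1 A_51_P420731 (adjusted p = 0.299). The smallest adjusted p belonged to Thy1 A_52_P479249 (6.18e-08) and to Lck (2.25e-07).

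The split between the HSC subsets and the myeloid populations asks whether T and NK cell transcripts sit on the stem cell side of the hierarchy. Of the 15 probes, 10 were higher in the HSC subsets and none was lower, where 18.2% of all probes were higher and 23.1% lower. The 10 probes belonged to 8 genes, all but Nkg7 and Gzmb. The median difference of the 15 probes was 1.32, against -0.017 over all probes.

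Lck was 2.34 ± 0.15 (SE) higher in the HSC subsets, 5.06-fold (adjusted p = 1.22e-07), from 8 against 9 arrays. Cd8a was 2.47 ± 0.20 higher with A_51_P345121 (adjusted p = 1.43e-06) and 2.49 ± 0.17 higher with A_52_P443334 (adjusted p = 3.28e-07), and the latter is a bound of at least 1.45-fold, since no myeloid array was well above background. That probe was the only member whose HSC arrays all lay above all myeloid arrays, as they did for 2.54% of all probes. Thy1 A_52_P479249 was 1.75 ± 0.09 higher (adjusted p = 1.97e-08), Cd3g, with 1 of the 9 myeloid arrays well above background, 1.72 ± 0.40 (adjusted p = 0.00374), Klrd1 1.32 ± 0.21 (adjusted p = 0.000241) and Cd7 0.68 ± 0.20 (adjusted p = 0.0143). Cd2 (adjusted p = 0.000476) and Cd8a A_52_P150547 (adjusted p = 0.0203) were higher too, but no myeloid array was well above background for either, and their bound was under 1-fold, so no size is given for them. The differences of Nkg7 (-0.45 ± 0.27 and -0.18 ± 0.27) and Gzmb (0.68 ± 0.36) did not pass (adjusted p = 0.205, 0.635 and 0.152). Leaving out the MEP array of run 2, on which Nkg7 was lowest, moved its A_51_P499195 difference to -0.66 (adjusted p = 0.0113).

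Scanner run moved with this split. With the run as a block 6.86% of all probes were higher and 7.64% lower, against 18.2% and 23.1% without it, and 5 of the 10 member probes were higher: Lck (2.66, adjusted p = 0.00017), Cd8a A_51_P345121 (1.88, 0.0026) and A_52_P443334 (1.74, 0.00107), Thy1 A_52_P479249 (1.81, 8.95e-06) and Cd7 (0.85, 0.0141), each as a log2 difference with its adjusted p. Cd3e A_51_P455681, 1.63 ± 0.40 higher without the block (adjusted p = 0.00539), was then -0.37 ± 0.29 (adjusted p = 0.472). Cd3g and Klrd1 kept their sign with the run as a block, at 1.32 and 1.02, and did not pass (adjusted p = 0.188 and 0.105). Cd2 and Cd8a A_52_P150547 kept their sign and did not pass either (adjusted p = 0.175 and 0.348). Within run 2, with 2 arrays of HSC subsets against 3 myeloid arrays and no test, Lck was 2.64 higher, Cd8a A_51_P345121 2.02, Thy1 A_52_P479249 1.19, Klrd1 0.56, Cd3g 0.42 and Cd7 0.35, while Cd3e A_51_P455681 was -0.32. Without both LT-HSC arrays the differences of Cd3g and Cd7 were 0.89 (adjusted p = 0.132) and 0.26 (adjusted p = 0.362). Without the dim LT-HSC array alone, Cd8a A_52_P150547 did not pass (adjusted p = 0.0819). In the plot of these differences the points of Cd2, Cd8a A_52_P150547 and A_52_P443334, Thy1 A_51_P420731 and Cd3e A_52_P86404 are not measured sizes, since no myeloid array was well above background for them.

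**Figure D3:**
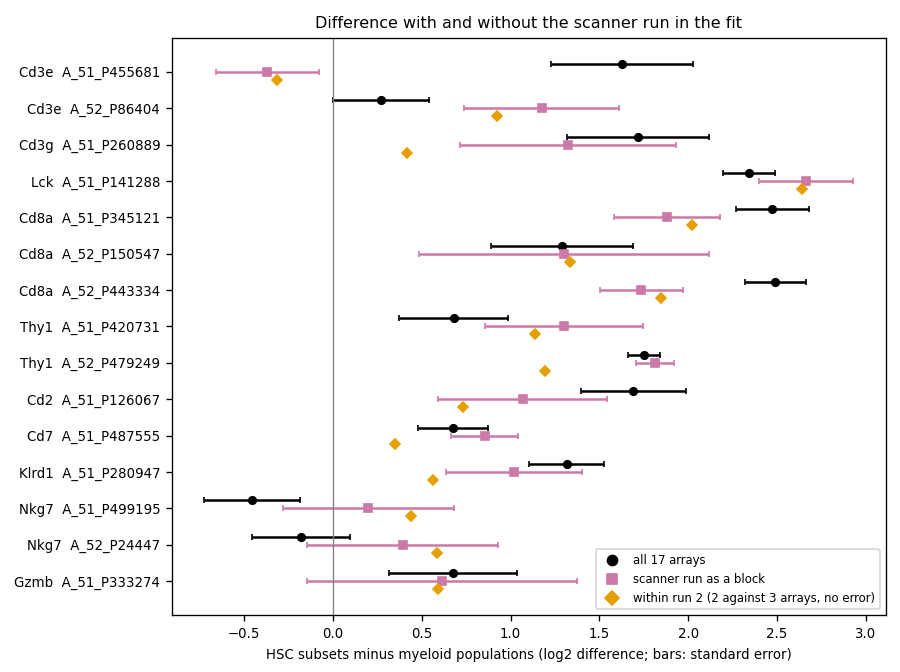
Difference in normalized log2 intensity between the HSC subsets and the myeloid populations (horizontal axis) for each of the 15 probes (vertical axis), with SE bars, from all 17 arrays, with scanner run as a block and within run 2 alone. Lck, Cd8a and Thy1 A_52_P479249 stay to the right of 0 in all of them, while Cd3e A_51_P455681 moves from 1.63 to -0.37 with the run as a block.

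LT-HSC were compared with the mean of ST-HSC and MPP. Here 4 probes were higher (background 4.63%) and none was lower (background 2.3%), with a median of 0.083 over the members and -0.069 over all probes. Thy1 A_52_P479249 was 1.78 ± 0.15 higher, 3.42-fold (adjusted p = 1.93e-05), in 2 against 6 arrays that did not overlap. Cd3g was 2.49 ± 0.67 higher (adjusted p = 0.0409), Klrd1 1.34 ± 0.35 (adjusted p = 0.0372) and Cd7 1.26 ± 0.33 (adjusted p = 0.0367). For Klrd1 and Cd7 the LT-HSC arrays overlapped with those of MPP, and the distance lay towards ST-HSC. Only the Thy1 call held whichever array was left out: without the dim LT-HSC array the adjusted p was 0.192 for Cd3g, 0.259 for Klrd1 and 0.368 for Cd7, and without the pooled one it was 0.135 for Cd3g and 0.0798 for Klrd1. These 3 calls were also lost without single arrays of the other populations (adjusted p = 0.0504 to 0.0729). LT-HSC lay on a slide of their own, so slide and population cannot be told apart.

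MPP and ST-HSC share the CD34+ gate and differ in FLT3, a receptor that marks the loss of long-term repopulation and the onset of lymphoid potential. In MPP 5 of the 15 probes were higher and 2 were lower, against backgrounds of 1.15% and 0.874%. Cd8a A_51_P345121 was 4.61 ± 0.34 higher (adjusted p = 3.17e-05), with 1 of the 3 ST-HSC arrays well above background, and A_52_P443334 2.61 ± 0.29 higher (adjusted p = 0.000336), with 2 of the 3. The low side of both probes is in part at background, so no fold is given for them. Klrd1 was 2.52 ± 0.35 higher (adjusted p = 0.00169), Lck 1.97 ± 0.24 (adjusted p = 0.000686) and Cd7 1.58 ± 0.33 (adjusted p = 0.0223). Gzmb was -4.04 ± 0.60, 16.4-fold lower (adjusted p = 0.00243), and Thy1 A_52_P479249 -1.53 ± 0.15 (adjusted p = 0.000137), while the Nkg7 differences of -1.43 and -1.41 did not pass (adjusted p = 0.194 and 0.219). Without the unnumbered MEP array, which enters the shared estimate of the spread, the first of them passed (adjusted p = 0.0231).

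The 3 MPP arrays did not overlap with the 3 ST-HSC arrays for any of these 7 probes, and each difference had the same sign within run 2 and within run 3. The values in run 2 and run 3 were 3.94 and 4.95 for Cd8a A_51_P345121, 1.84 and 2.04 for Lck, 1.54 and 3.01 for Klrd1, 1.44 and 1.66 for Cd7, -2.78 and -4.66 for Gzmb and -1.62 and -1.49 for Thy1. The Cd7 call was lost without ST-HSC 2, ST-HSC 3, MPP 2 or the unnumbered MPP array (differences of 1.36 to 1.66, adjusted p = 0.0657 to 0.106). With each array scaled to its 75th percentile, Cd7 (1.36, adjusted p = 0.059) and Cd8a A_52_P443334 (2.19, adjusted p = 0.071) did not pass.

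GMP set against CMP follows the step towards granulocytes and monocytes. Lck, Cd7 and Klrd1 were lower in GMP, with differences of -2.66 ± 0.24, -3.71 ± 0.33 and -3.33 ± 0.35 (adjusted p = 3.97e-05, 3.42e-05 and 0.000109). For Lck this is 6.31-fold. Cd7 was well above background on 1 of the 3 GMP arrays and Klrd1 on 2, so that their low side is in part at background and no fold is given. Thy1 A_52_P479249 was lower too, at -0.67 ± 0.15 (adjusted p = 0.0175). Nkg7 was higher by 2.01 ± 0.45 and 1.97 ± 0.46 with its 2 probes (adjusted p = 0.0197 and 0.0247). The counts were 4 of 15 lower and 2 of 15 higher, against backgrounds of 2.93% and 1.84%.

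In runs 1 and 2 separately the GMP differences were -2.87 and -2.23 for Lck, -3.91 and -3.32 for Cd7, -3.21 and -3.56 for Klrd1 and 1.87 and 2.28 for Nkg7 A_51_P499195. The calls of Lck, Cd7 and Klrd1 held whichever array was left out. Those of Nkg7 and Thy1 did not: without CMP 1, for example, the adjusted p was 0.0829 and 0.109 for the Nkg7 probes and 0.0582 for Thy1, and without GMP 1 it was 0.0592, 0.0667 and 0.0712, with differences that moved little.

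MEP were compared with the mean of CMP and GMP. Nkg7 was lower in MEP, with differences of -3.11 ± 0.39 and -3.25 ± 0.40 (adjusted p = 5.16e-05 and 4.12e-05), and Gzmb was at least 4.91-fold lower (adjusted p = 0.000112), since no MEP array was well above background. Thy1 A_52_P479249 was 0.79 ± 0.13 higher (adjusted p = 0.00046) and Cd7 1.48 ± 0.28 higher (adjusted p = 0.00176), where Cd7 overlapped between MEP and CMP and the distance lay towards GMP. The counts were 2 of 15 higher and 3 of 15 lower, with backgrounds of 9.38% and 10.7%. Within run 1 and run 2 the Nkg7 A_51_P499195 difference was -2.52 and -4.29. That of Gzmb was negative in both runs, and no size is given for it because its MEP side is at background. Without MEP 2, Cd3g was also higher in MEP (1.84, adjusted p = 0.0261), and no other member's call in this comparison changed when an array was left out.

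**Figure D4:**
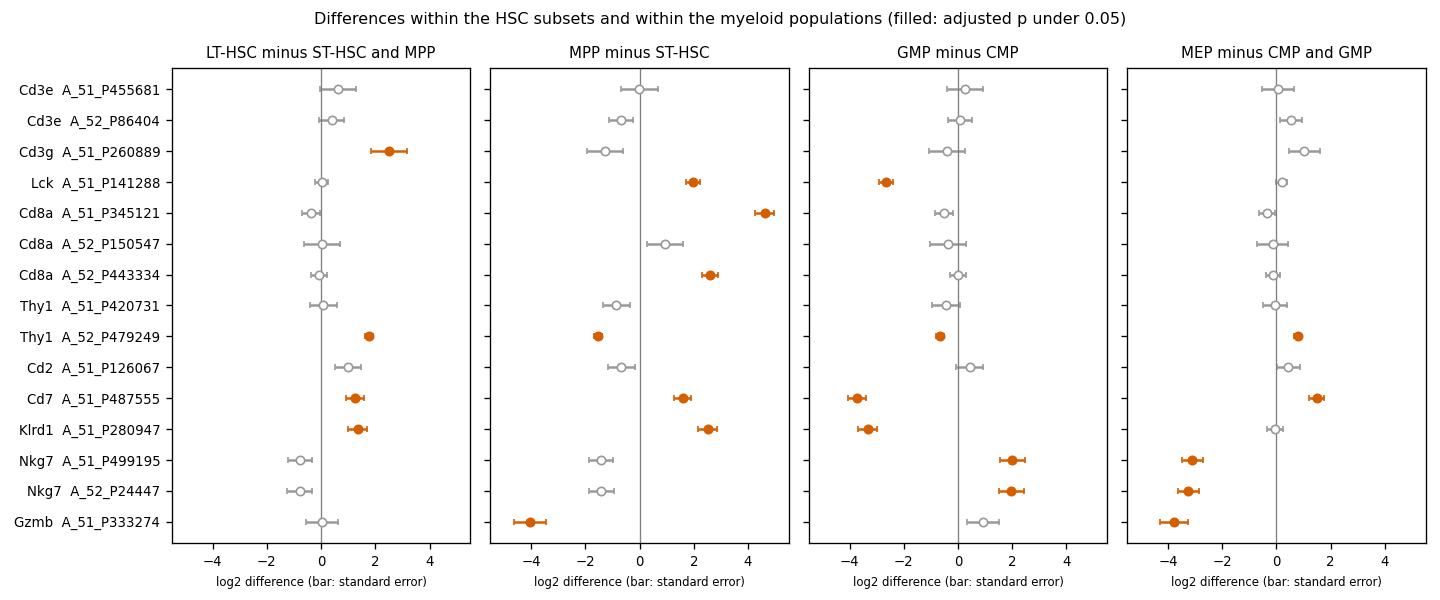
Differences in normalized log2 intensity (horizontal axis) with SE bars for the 15 probes (vertical axis) in the other 4 comparisons, 1 panel each, with filled points for an adjusted p under 0.05. Cd8a reaches 4.61 in MPP against ST-HSC, and in GMP against CMP Nkg7 (2.01 and 1.97) lies on the other side of 0 from Cd7 (-3.71), Klrd1 (-3.33) and Lck (-2.66).

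Other genes of the same systems were read in 3 lists. The list of T cell receptor signalling (22 genes, 40 probes) had 18 probes higher and 4 lower in the HSC subsets than in the myeloid populations (45% and 10%, against 18.2% and 23.1% of all probes), with a median of 0.63. Among those higher were the co-receptor chain Cd8b1 (2.37), the adaptor Lat (2.11), the phosphatase Ptpn22 (1.85) and Cd3d (1.62), while both probes of Ubash3a, a suppressor of T cell receptor signalling, were lower (-2.12 and -1.73). The list of killer cell genes (21 of its 22 genes, 31 probes) had 14 higher and 1 lower (45.2% and 3.23%), with a median of 0.38. The largest differences without overlap of the arrays were those of the chemokine Ccl5 (2.84), the protease Ctsw (2.51) and the receptor Klrb1c (2.50). The list of T and NK cell regulators (12 of its 13 genes, 23 probes) had 10 higher and 1 lower (43.5% and 4.35%), with a median of 0.54, and in it the transcription factor Gata3 was higher (3.40 ± 0.22, adjusted p = 1.78e-07). With scanner run as a block the counts of higher probes were 12, 11 and 6, where 6.86% of all probes were higher.

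Among the HSC subsets, Il7r, the receptor of a cytokine that lymphoid cells depend on, was higher in MPP than in ST-HSC. The difference was 4.21 ± 0.51 with probe A_51_P196695 (adjusted p = 0.000596). Cd6 (A_51_P313320, 2.78 ± 0.29, adjusted p = 0.00025) and Cd5 (2.07 ± 0.29, adjusted p = 0.00169) were higher too. Of the dimmer probes, Il7r A_52_P32750 passed on no array. Means in MPP and ST-HSC were 3.90 and 3.09 for Il7r A_52_P555957 and 5.61 and 5.18 for Cd6 A_52_P294977. In that comparison 3 of 40, 1 of 31 and 7 of 23 probes of the lists were higher and none was lower, against 1.15% and 0.874% of all probes. In GMP against CMP none was higher, and 7, 5 and 7 were lower, against 1.84% and 2.93% of all probes. Il7r was there at least 12.5-fold lower with A_51_P196695 (adjusted p = 6.89e-05) and Gata3 at least 5.91-fold lower (adjusted p = 9.3e-05). Il7r A_52_P555957 had a mean of 4.32 in CMP, where every array passed, and of 2.94 in GMP, where none did.

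LT-HSC and MEP are the 2 populations gated as CD34-negative. Of the 94 list probes 18 were higher in LT-HSC than in ST-HSC and MPP and 20 were higher in MEP than in CMP and GMP, and 13 were in both sets, 72.2% of the former and 65% of the latter. Over all probes 4.63% were higher in LT-HSC and 9.38% in MEP, and the 387 in both sets were 20.3% and 10.02% of them. List genes also went the other way. In MEP 5, 7 and 5 probes of the 3 lists were lower (10.7% of all probes were), against 6, 7 and 7 higher, and in LT-HSC 3 killer cell probes and none of the other lists were lower (2.3% of all probes). Those 3 were the probes of Cd244, a receptor of the SLAM family on NK cells, which were lower in MEP too, and with A_51_P205209, the probe that passed on all LT-HSC and MEP arrays, the differences were -1.76 ± 0.31 in LT-HSC (adjusted p = 0.00514) and -3.02 ± 0.27 in MEP (adjusted p = 2.47e-06). Tyrobp, a signalling adaptor of NK and myeloid receptors, was lower in MEP (-3.70 ± 0.30, adjusted p = 1.03e-06), as was Lcp2, the adaptor SLP-76 (-2.38 ± 0.18, adjusted p = 6.89e-07). The LT-HSC and MEP comparisons share no array. The 13 probes were of Bcl11b, a transcription factor of T cell commitment, Tcf7, Cd8b1, Skap1, Trat1, the kinase Txk, Ccl5, Gzma, Ifng and the interleukin 2 receptor chain Il2rb. Bcl11b probe A_51_P171772 read 7.57 ± 0.07 (SD, n = 2) in LT-HSC and 6.81 ± 0.14 (n = 3) in MEP, against 4.36 ± 0.80 in ST-HSC, 4.31 ± 1.03 in CMP and 2.47 and 2.50 in MPP and GMP, where no array passed with this probe. The other Bcl11b probe, A_52_P925277, read 5.54 ± 1.02 in LT-HSC, 2.97 ± 1.84 in MEP and 1.59 to 2.50 as the means of the other populations, and passed on 1 LT-HSC, 2 ST-HSC, 1 MPP and 1 MEP array. Il2rb read 9.13 ± 0.03 in LT-HSC and 7.28 ± 0.25 in MEP, against 3.91 to 7.01 as the means of the other 4 populations. The probes of Gzma and Trat1 and 1 probe each of Ifng and Txk passed on no MEP array and on 1 of the 2 LT-HSC arrays. Without the dim LT-HSC array 12 probes of the same 10 genes were in both sets (92.3% of 13 in LT-HSC and 57.1% of 21 in MEP), and without the pooled one 12 (63.2% of 19 and 57.1% of 21). With scanner run as a block there were 14 (56% of 25 and 58.3% of 24), with slide as a random block 9 (81.8% of 11 and 45% of 20), and with scaling to the 75th percentile 13 (48.1% of 27 and 59.1% of 22). Of all 41174 probes 2920, 530 and 5766 were higher in LT-HSC in these 3 settings, and 6386, 4895 and 4216 in MEP. The overlap over all probes was counted in the main fit only, so these shares have no reference of their own. Of the members, Thy1 A_52_P479249 and Cd7 were higher in both comparisons.

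Markers of mature cells moved with some of these differences. The depletion was directed at B cells (B220), T cells (CD3), granulocytes (GR-1) and erythroid cells (Ter119), and every gate required c-kit. The summed intensity of 8 T cell markers that are not members was 2324 to 2780 in LT-HSC, 2165 to 2701 in ST-HSC, 2237 to 3079 in MPP, 1075 to 1745 in CMP, 373 to 571 in GMP and 464 to 710 in MEP. Without Lat the ranges were 786 to 1161, 227 to 334, 487 to 667, 289 to 353, 130 to 156 and 257 to 380. Of the defining receptor chains, Cd3d had a mean of 6.71 ± 0.76 (SD) over the LT-HSC arrays, 5.06 ± 0.88 over ST-HSC, 4.01 ± 0.39 over MPP and 4.60 ± 0.97 over MEP, and passed on no CMP or GMP array. The 8 markers, read by 1 probe each, did not share 1 order of means among the HSC subsets. Cd3d and Cd8b1 had LT-HSC first and MPP last, and so did Bcl11b A_51_P171772 but not A_52_P925277, which had ST-HSC last. Cd5 (8.59 in MPP, 7.95 in LT-HSC and 6.52 in ST-HSC), Cd247 (5.93, 5.41 and 3.94) and Cd28 (5.29, 4.57 and 3.18) had MPP first and ST-HSC last. Lat had ST-HSC first and LT-HSC last (11.06 in ST-HSC, 10.95 in MPP and 10.57 in LT-HSC), and Cd4 had LT-HSC first and ST-HSC last (5.51, with 5.28 in MPP and 5.24 in ST-HSC). The part of T cells in these values was not tested.

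The 8 NK cell markers summed to 904 to 1125 in LT-HSC, 267 to 382 in ST-HSC, 298 to 326 in MPP, 189 to 238 in CMP, 138 to 158 in GMP and 224 to 301 in MEP. Of these genes, Il2rb and Klrk1 were well above background on 15 of the 17 arrays each, Klrb1c on 12, among them all arrays of the HSC subsets and of CMP, and Prf1 on 5, while Gzma passed on 1 LT-HSC array, Ncr1 and Eomes on 1 ST-HSC array each and Klra8 on none. The part of NK cells in the levels of Klrd1, Nkg7 and Gzmb was not tested. The 12 mast cell and basophil markers summed to 59529 to 79384 in GMP and 16409 to 18087 in ST-HSC, against 1662 to 6176 on the arrays of the other populations. Of the 12 genes, 8 to 9 passed on the GMP arrays, 10 on the ST-HSC arrays and 4 to 10 on the others, and Mcpt1 and Tpsab1 passed on none. GMP and ST-HSC were also the populations in which Nkg7 and Gzmb were highest, and the part of mast cell or basophil progenitors in these values was not tested. Plasmacytoid dendritic cell markers (6 genes) summed to 10934 to 14069 in MPP, where Lck and Cd8a were highest, against 8127 to 10088 in LT-HSC, 5438 to 8583 in ST-HSC, 9324 to 10716 in CMP, 5248 to 7441 in GMP and 4315 to 5800 in MEP. Ccr9 (8.78 in MPP, 8.08 in LT-HSC and 5.58 in ST-HSC), Pacsin1 (7.85, 6.91 and 4.82) and Cox6a2 (10.91, 8.26 and 6.90) were highest in MPP and lowest of the HSC subsets in ST-HSC by their means. Bst2 had population means of 12.2 to 13.2, Klk1 was highest in ST-HSC (4.18), and Siglech, a defining marker, passed on no MPP array and on all 3 CMP arrays. Mature plasmacytoid dendritic cells of mice carry B220, an antigen of the depletion, and the part of any that remained in the levels of Lck and Cd8a was not tested. B cell markers (10 genes) summed to 40059 to 73014 in LT-HSC, 37514 to 41664 in MPP and 28515 to 31449 in CMP, the populations in which Cd7 and Klrd1 were highest, against 1455 to 14531 on the other arrays. Of the 10 genes, 4 to 6 passed on the LT-HSC arrays, 6 to 8 in MPP and 4 in CMP. In ST-HSC 5 to 8 passed, in GMP 4 to 5 and in MEP 3 to 4, and Fcer2a and Ebf1 passed on no array. Mature neutrophil markers, of which 9 or 10 of 10 passed on every array, summed to 355141 to 563578 in LT-HSC, 268616 to 566726 in ST-HSC and 75367 to 290393 in MPP, against 38624 to 105205 in CMP, 48322 to 229885 in GMP and 87058 to 174628 in MEP. Mature erythroid markers (7 genes) summed to 40389 to 88172 in MEP and 20810 to 29528 in LT-HSC, the populations of the shared list genes above, against 10485 to 22949 in ST-HSC and 548 to 16187 in MPP, CMP and GMP. Markers of macrophages and dendritic cells (8 genes) summed to 2545 to 5640 in ST-HSC, against 500 to 2273 on the other arrays. The part of such cells in these values was not tested. The 5 genes of the sort gates were marked well above background on every array.

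**Figure D5:**
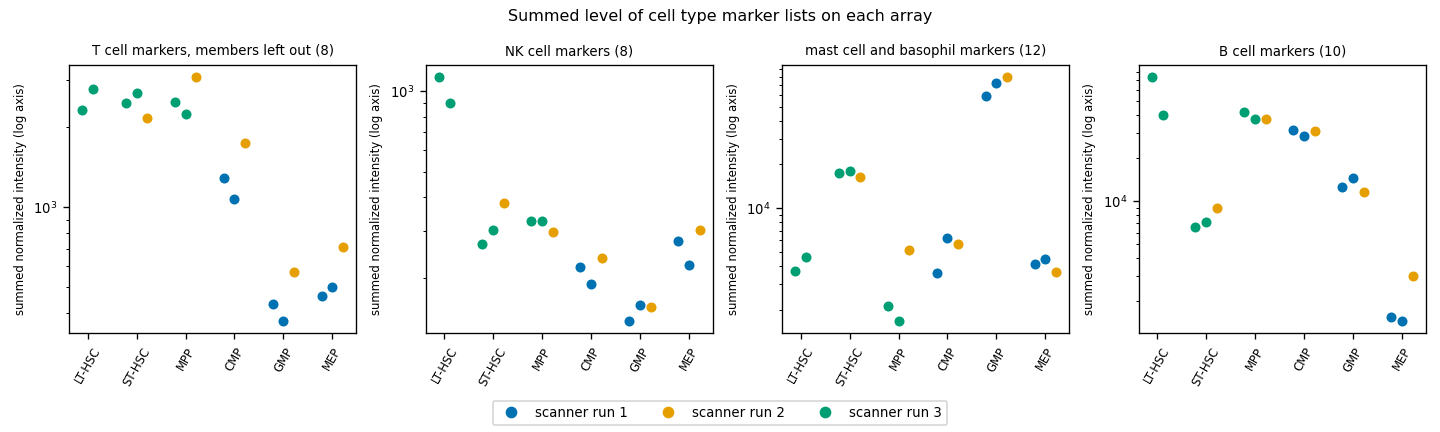
Summed normalized intensity (vertical axis, log scale) of the T cell markers without the members, the NK cell markers, the mast cell and basophil markers and the B cell markers, 1 panel each and coloured by scanner run, on each of the 17 arrays, by population (horizontal axis). The NK cell markers are highest on the LT-HSC arrays (904 to 1125), and the mast cell and basophil markers on the GMP arrays (59529 to 79384).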

How the data were processed

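The 17 arrays are Agilent 4×44k single-colour mRNA arrays of 6 sorted populations. The deposited scanner files hold intensities per spot, as written by Agilent Feature Extraction 9.5.3.1 or 10.2.1.3 per the file headers, and the deposited value table holds log2 values that the authors quantile-normalized. Here the processed intensities, already background-subtracted by the scanner software, were quantile-normalized on the log2 scale, outlier spots were left out (161 probe values were missing in all), and the 43379 non-control spots were averaged per probe, giving 41174 probes. Arrays were grouped by the labels. Populations were compared with limma 3.58.1 in R 4.3.3 (lmFit and eBayes on 6 population means over all 17 arrays, 1 F-test and 5 contrasts, Benjamini-Hochberg adjustment over all probes, adjusted p under 0.05). Adjusted p-values and SEs in the text come from this fit. "Well above background" is the mark of the scanner software. The number of arrays, 2 or 3 a population, limits the precision.

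The 10 genes, the pathway lists and the marker lists were chosen with earlier results of these data known. Genes named from a pathway list were the 3 with the largest difference each way among probes that passed without overlap of the arrays, and other list genes named were chosen after their values were seen. A few items that met this rule are not reported here. The 3 genes most alike were those with the highest Pearson's r over all 17 arrays among probes well above background on at least 9. Alternatives were scaling to the 75th percentile, normexp (offset 50), the deposited value table, leaving out dim probes, scanner run, slide or replicate number in the fit, and leaving out arrays. Nothing in the labels says that replicates of a population are separate sorts, so p-values measure the spread between these samples. The fit was tested on simulated data.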

Additional observations from a re-analysis of the deposited data

How the results depend on the processing

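Of the 10 probes higher in the HSC subsets than in the myeloid populations, 5 passed with scanner run as a block, and Cd3e A_51_P455681 changed sign, to -0.37 with that block and -0.32 within run 2. The count of probes that passed in LT-HSC against ST-HSC and MPP, 4 of 15, was 1 with slide as a random block (correlation 0.361) and 1 to 4 when 1 array was left out. In GMP against CMP it was 3 to 6 when 1 array was left out, against 6. In the other comparisons no alternative moved a count by more than 1.5 times. Leaving out 1 array gave 11 to 12 for the F-test, 9 to 11 for HSC subsets against myeloid populations, 6 to 8 for MPP against ST-HSC and 5 to 6 for MEP. With a threshold at the 99th percentile of negative control spots 180 of 255 pairs of probe and array passed, against 160. The cause of these changes was not tested.

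Arrays of one number share a label across populations. With the replicate block the pooled LT-HSC array takes a level of its own. LT-HSC against ST-HSC and MPP then rests on the unnumbered array, so no count is given for it. The other counts were 10 for the F-test, 10 for HSC subsets against myeloid populations, 7 for MPP against ST-HSC, 6 for GMP against CMP and 5 for MEP. In the comparisons after the F-test, in this order, 6778, 737, 1100 and 5684 of all 41174 probes were higher. Those lower were 9271, 517, 1738 and 5269. The deviations of arrays with the same number correlated at 0.64 and 0.51 between ST-HSC and MPP and at 0.22 to 0.57 among the myeloid populations. The arrays of these pairs also share slides. Between HSC subsets and myeloid populations the correlations were -0.09 to -0.01. Those arrays share neither slide nor run, so the correlations cannot say whether a number pairs arrays across both sorts.

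With each array scaled to its 75th percentile the median of all probes moved to 0.31 in HSC subsets against myeloid populations, to 0.21 in LT-HSC and to 0.44 in MEP, and the share of higher among all probes that passed went from 44.0% to 64.1% in the first and from 66.9% to 89.9% in the second. The member counts were then 12, 4, 5, 6 and 5. In the same order of comparisons 10854, 5766, 298, 668 and 4216 of all 41174 probes were higher, and 6088, 650, 334, 1254 and 3921 lower. The filter on dim probes kept 24656 probes, and 13 of the 15 members passed it. Signal over background limits the dim members: of the 15 probes, 7 were well above background on the unnumbered LT-HSC array, 12 on the pooled one and 6 to 9 on the myeloid arrays.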
